A study of Mus musculus with 33 samples.

Results

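The angiopoietin and vascular endothelial growth factor (VEGF) ligands and receptors described here are the 8 genes Angpt1, Angpt2, Tek, Tie1, Vegfa, Pgf, Kdr and Flt1, found by the gene symbol of their probes. Of 45281 probes on the array, 15254 carried 1 gene symbol, and 10 of those belonged to the 8 genes. Angpt2 and Vegfa had a pair of probes each, and the brighter probe stands for the gene below. All 10 probes passed the filter on low signal (a detection p-value under 0.01 on at least 4 of 33 arrays), as did 10412 genes in all, but Angpt1, Pgf and Kdr did so with detection on 10, 14 and 12 arrays.

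The arrays were single-colour Illumina bead arrays hybridised with biotin-labelled cRNA made from total RNA of C57BL/6 mice, an inbred strain, aged 8 weeks. Uterus of non-pregnant mice was the control, on 6 arrays. The other groups were what the labels call the uterine microenvironment, counted in days from fertilization, with 6 arrays for day 6, 5 for day 12 and 4 each for days 4, 8, 10 and 11. No group carries a genotype or a treatment. The labels state neither how the tissue was dissected nor whether each array is an animal of its own, so the p-values reflect spread between samples that may be technical.

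Angiopoietins and VEGFs are secreted proteins that act on receptor tyrosine kinases of endothelial cells. Angiopoietin 1 activates the receptor Tie2, encoded by Tek, and stabilises vessels, while angiopoietin 2 opposes it in many settings and loosens vessels for sprouting or regression, and Tie1 is a Tie2-related receptor that forms complexes with Tie2. VEGF-A drives endothelial growth and permeability mainly through VEGFR2, encoded by Kdr. VEGFR1, encoded by Flt1, binds VEGF-A and placental growth factor (Pgf), and its soluble form traps both. In the mouse the uterine stroma turns into decidua and grows a dense bed of vessels before the placenta takes over.

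Values are log2 normalised intensities or log2 differences between group means, and "rose" or "fell" is used for a gene whose adjusted p by limma was under 0.05. The depth of an array is given by how many of its probes were detected, which was 15040 to 18692 on 31 arrays. Non-pregnant replicate 4 had 13097 and day 6 replicate 4 had 13149, and these are called the dim arrays below. The lowest signal of a detected probe, the floor of an array, was 4.98 to 6.08, and values below it have no order. Levels of different probes are not comparable. The tissue labels were set against marker lists. The mean of 12 decidual stroma genes had a median over arrays of 5.67 in non-pregnant uterus and 9.20 at day 8, and that of 13 trophoblast genes was 4.61 in non-pregnant uterus, where 11 of the 13 were undetected on every array, 5.69 at day 8 and 9.98 at day 12. In these bulk samples fewer cells of a type and less RNA per cell cannot be told apart.

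The largest movement among the 8 genes was that of Angpt2, which was 25.9-fold higher at day 8 and 30.5-fold higher at day 10 than in non-pregnant uterus, and 7.22-fold higher at day 12. Tie1 was about as much higher at days 8 and 10, by 1.22 log2 each, and did not pass at days 11 and 12. Pgf was undetected in non-pregnant uterus and detected on every array of days 10 and 11, Flt1 was highest at day 12, and Vegfa and Tek fell at day 12. Angpt1 and Kdr lay near background. Against non-pregnant uterus, 1 of 8 members was called at day 4, where 8.95% of all genes were called, 4 at day 6 (38.8% of all genes), 3 at day 8 (50.9%), 3 at day 10 (53.8%), 2 at day 11 (58.2%) and 5 at day 12 (60.8%). Between successive groups, 2 were called from day 4 to day 6 (25.6% of all genes), 1 from day 6 to day 8 (20.2%), 2 from day 8 to day 10 (18%), 2 from day 10 to day 11 (14.1%) and 2 from day 11 to day 12 (6.62%). From day 8 to day 12, 5 were called (47.3%), of which 4 fell, as did 23.3% of all genes. Over the 7 groups, 7 of 8 members passed limma's F test, as did 80.1% of all genes. The shares of members called at day 6, at day 12, from day 4 to day 6 and over all groups thus lie near those of all genes. They are no result about the family. In the other comparisons the gap between the shares was not tested, and with 8 members it is no result about the family either. The comparisons against non-pregnant uterus share their control arrays.

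**Figure D1:**
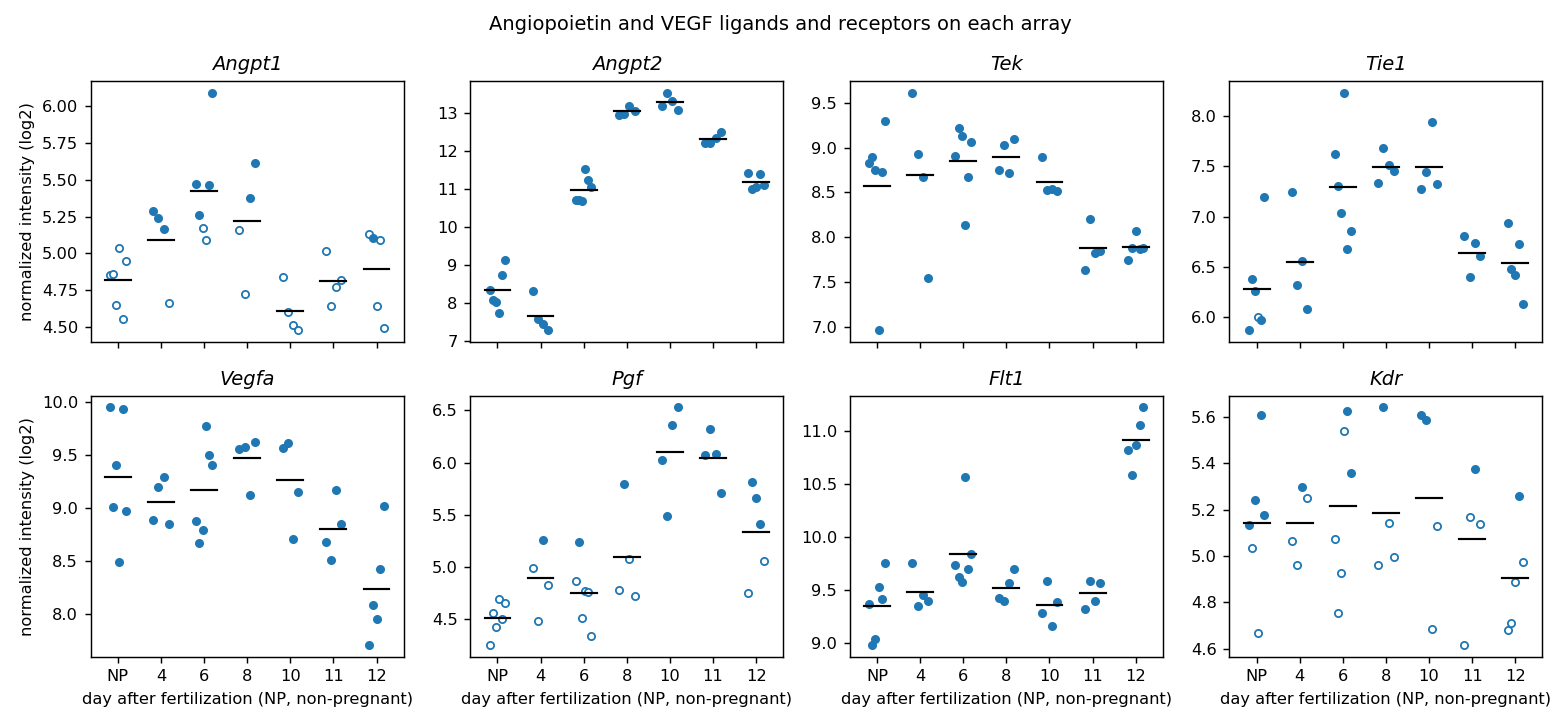
Normalised log2 intensity (vertical axes, each with its own range) of the 8 genes on each of the 33 arrays, by group (horizontal axes, non-pregnant uterus and days after fertilization). Filled points are arrays that detected the probe, open points arrays that did not, and bars are group means. Angpt2 is high from day 6 on, Flt1 is highest on the 5 day 12 arrays, and Angpt1, Pgf and Kdr hold many open points.

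Angpt2 on the 6 non-pregnant arrays ran from 7.73 over a median of 8.21 to 9.13. At day 4 its 4 arrays read 8.33, 7.58, 7.45 and 7.28, and the 6 day 6 arrays ran from 10.68 over a median of 10.88 to 11.53. Every day 6 array lay above every non-pregnant and day 4 array. The day 8 arrays read 12.94, 12.97, 13.18 and 13.05, and the day 10 arrays 13.18, 13.52, 13.31 and 13.08. At day 11 the values were 12.20, 12.20, 12.35 and 12.50, and at day 12 they were 11.42, 11.00, 11.06, 11.39 and 11.10. Arrays of day 8 and day 10 overlapped, all of them were above all of day 11, and all of day 11 were above all of day 12. The spread within these late groups was small, with SDs between 0.11 and 0.19.

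Angpt2 rose by 2.64 (SE 0.19, limma adjusted p = 1.51e-12) at day 6 against non-pregnant uterus, by 4.69 (SE 0.21, adjusted p = 1.23e-17) at day 8 and by 4.93 (SE 0.21, adjusted p = 9.39e-19) at day 10. It was still 3.97 higher at day 11 and 2.85 higher at day 12 (SE 0.20, adjusted p = 1.37e-13). The range of its 7 group means, 5.61 log2, was number 107 in size among the 10412 genes. From day 4 to day 6 it rose by 3.32 and from day 6 to day 8 by 2.05. It then fell by 0.96 (adjusted p = 0.00414) from day 10 to day 11 and by 1.12 (adjusted p = 0.000835) from day 11 to day 12. In order of level, day 10 and day 8 did not differ beyond their spread (adjusted p = 0.558), nor did day 12 and day 6 (adjusted p = 0.404). The decline from day 10 to day 11 had an adjusted p of 0.0954 under median scaling. Beside these values, the decidual stroma list mean had medians of 8.49 at day 6, 9.20 at day 8, 8.06 at day 10, 7.29 at day 11 and 6.75 at day 12, and its part in the result was not tested.

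At day 4 Angpt2 fell by 0.68 (SE 0.21, limma adjusted p = 0.0411) against non-pregnant uterus, and the arrays of both groups overlapped. The call was lost under 6 of 14 other processing settings and when any of 6 of the 10 arrays was left out, with adjusted p values up to 0.621. The median of all genes moved by 0.14 log2 under median scaling in this comparison.

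The dimmer Angpt2 probe followed the same course. No non-pregnant or day 4 array detected it, and the 4 day 8 arrays read 8.29, 7.75, 7.98 and 7.85 and the 4 day 10 arrays 8.14, 8.32, 8.51 and 8.22. No day 11 array exceeded 7.09 and no day 12 array exceeded 5.54. Set against the lowest signal that could be detected, it was at least 6.47-fold higher than in non-pregnant uterus at day 8 (adjusted p = 4.46e-14), at least 8.15-fold at day 10 and at least 2.19-fold at day 11. From day 10 to day 11 it fell by 1.90, compared with 0.96 for the brighter probe, a difference that was not itself tested.

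**Figure D2:**
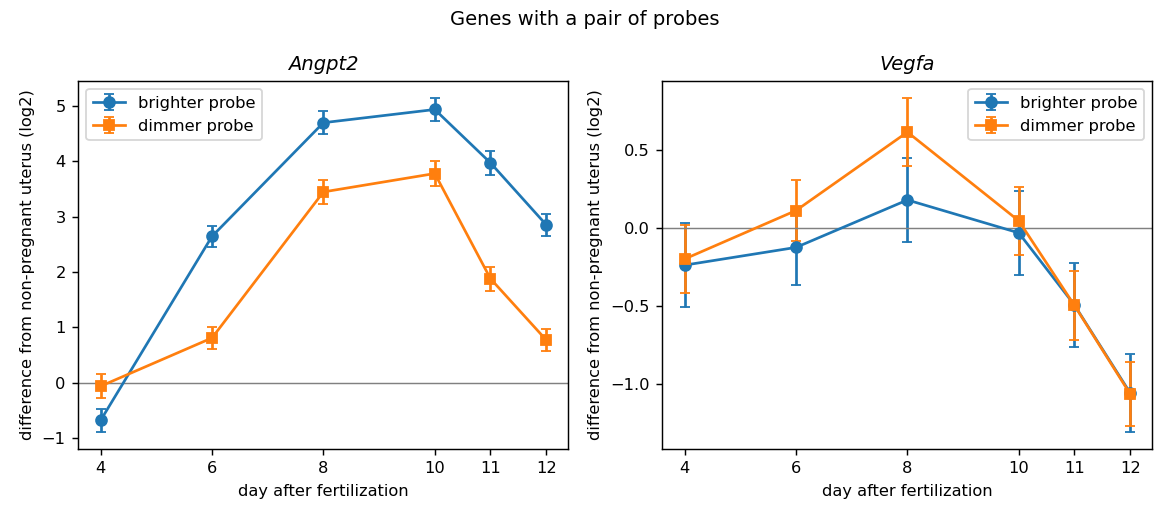
Log2 difference from non-pregnant uterus (vertical axes) by day after fertilization (horizontal axes) for the brighter and the dimmer probe of Angpt2 (left) and of Vegfa (right). Points are differences of group means and bars their standard errors from limma. Both Angpt2 probes peak at days 8 and 10, where non-pregnant arrays did not detect the dimmer probe, and both Vegfa probes are lowest at day 12.

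Angpt4, another angiopoietin and Tie2 ligand, is no member of the 8 genes but comes from the list of other VEGF and angiopoietin genes. Its non-pregnant arrays read 4.58, 4.57, 4.79, 6.95, 4.38 and 4.66, and the 6.95 of the dim replicate 4 was the 1 value detected. The 4 day 8 arrays read 9.82, 10.00, 9.93 and 9.86. All arrays from day 6 on detected the probe. Group means were 7.67 at day 6, 9.90 at day 8, 9.52 at day 10, 8.30 at day 11 and 6.32 at day 12. The difference from non-pregnant uterus was 4.91 (SE 0.35, limma adjusted p = 8.20e-13) at day 8 and 1.33 (SE 0.33, adjusted p = 0.000971) at day 12, and from day 8 to day 12 it fell by 3.58. With 5 of 6 non-pregnant arrays at background, these sizes depend on the background step. Over the other settings and with arrays left out the day 8 difference lay between 2.87 and 5.31 and the day 12 difference between 0.40 and 1.72, all past the threshold. Angpt2 and Angpt4 thus both passed in all 5 comparisons of day 6 to day 12 with non-pregnant uterus.

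Angpt1, the activating Tie2 ligand, was close to background throughout. None of the 6 non-pregnant, 4 day 10 and 4 day 11 arrays detected it, against 3 of 4 arrays at day 4, 4 of 6 at day 6, 2 of 4 at day 8 and 1 of 5 at day 12. Its day 6 arrays ran from 5.09 over a median of 5.36 to 6.09, and the non-pregnant arrays from 4.55 over 4.86 to 5.04. These values did not overlap, although 2 of the day 6 values were undetected. The closest pair, 5.09 and 5.04, came from the dim arrays of both groups. Both values lay below the floors of their arrays, 6.07 and 6.08, so the lack of overlap carries no information. Angpt1 rose by 0.61 (SE 0.16, limma adjusted p = 0.00321) at day 6, which is 1.11-fold when non-pregnant arrays are put at their floor. With 2 of the day 6 values undetected and entered as read, that is no lower bound. From day 8, with arrays at 5.16, 4.73, 5.38 and 5.62, to day 10, with 4.84, 4.60, 4.51 and 4.48, the fitted difference was -0.61 (adjusted p = 0.0275), and the arrays overlapped. No day 10 array detected it, and the day 8 mean of 5.22 lay below the floors of all day 10 arrays, so no fold could be bounded. That call was lost under 3 of 14 other processing settings and with any of 5 of the 8 arrays left out. No neighbours in the order of its group means differed beyond their spread.

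Tek, the gene of Tie2, was detected on all 33 arrays. Its non-pregnant arrays read 8.83, 8.90, 8.75, 6.96, 8.73 and 9.30, with the dim replicate 4 as the low one. The day 8 arrays read 8.76, 9.03, 8.72 and 9.10, the day 11 arrays 7.63, 8.21, 7.82 and 7.85, and the day 12 arrays 7.74, 7.88, 8.07, 7.87 and 7.88. Every day 11 and day 12 array lay below every day 8 and day 10 array. Tek fell by 1.01 (SE 0.33, limma adjusted p = 0.0115) from day 8 to day 12, with an adjusted p of up to 0.166 under other settings. Against non-pregnant uterus it fell by 0.68 (SE 0.29, adjusted p = 0.0454) at day 12, and the call was lost when any of 10 of the 11 arrays was left out. Without non-pregnant replicate 4 the day 12 difference was -1.01. At day 11 the difference of -0.70 did not pass, and without that array it was -1.02 and passed (adjusted p = 0.000738). Tek at days 4, 6, 8 and 10 did not pass, with differences between 0.05 and 0.33. Without non-pregnant replicate 4 these were -0.21 at day 4, -0.04 at day 6, 0.00 at day 8 and -0.28 at day 10, so their direction has no support.

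Tie1, the orphan receptor that pairs with Tie2, was detected on 32 arrays. Its non-pregnant arrays ran from 5.87 over a median of 6.13 to 7.20, and its day 6 arrays from 6.68 over 7.17 to 8.23, with some overlap. The day 8 arrays read 7.34, 7.68, 7.52 and 7.45 and the day 10 arrays 7.28, 7.45, 7.94 and 7.33, all above all non-pregnant arrays. The day 11 arrays, at 6.81, 6.40, 6.74 and 6.61, lay below all of those of days 8 and 10. Tie1 rose by 1.01 (SE 0.23, limma adjusted p = 0.000706) at day 6, 1.22 (SE 0.25, adjusted p = 0.000199) at day 8 and 1.22 (SE 0.25, adjusted p = 0.000175) at day 10. It fell by 0.86 (SE 0.28, adjusted p = 0.0363) from day 10 to day 11 and by 0.96 (SE 0.26, adjusted p = 0.00338) from day 8 to day 12. In the order of its group means, day 10, day 8 and day 6 did not differ from their neighbours, and day 6 and day 11 did (adjusted p = 0.0400). The day 10 to day 11 call was lost when any of 6 of the 8 arrays was left out. Its day 6 rise over day 4, 0.74 (adjusted p = 0.0316), was lost under 4 of 14 other settings and when any of 5 of the 10 arrays was left out.

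Within groups, Tie1 and Tek can be set beside the mean of other endothelial genes on the same array. On non-pregnant replicate 6 the mean of 18 endothelial identity genes was 9.47, while the other 5 arrays of the group had 8.13 to 8.81, and Tie1 there was the highest of its group at 7.20. On day 4 replicate 1 that mean was 9.43, with Tek at 9.61 and Tie1 at 7.25. On day 4 replicate 4 it was 8.45, with Tek at 7.54 and Tie1 at 6.08, the lowest of the group. Other arrays did not follow this: the dim day 6 replicate 4, with a mean of 9.17, had the highest Tie1 of its group, at 8.23, and the lowest Tek, at 8.13. By group, the endothelial mean had medians of 8.66 in non-pregnant uterus, 8.98 at day 4, 9.18 at day 6, 9.28 at day 8, 9.34 at day 10, 8.76 at day 11 and 8.58 at day 12. None of the 18 genes was undetected in a whole group. The part of endothelial cell content in the results on Tek and Tie1 was not tested.

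**Figure D3:**
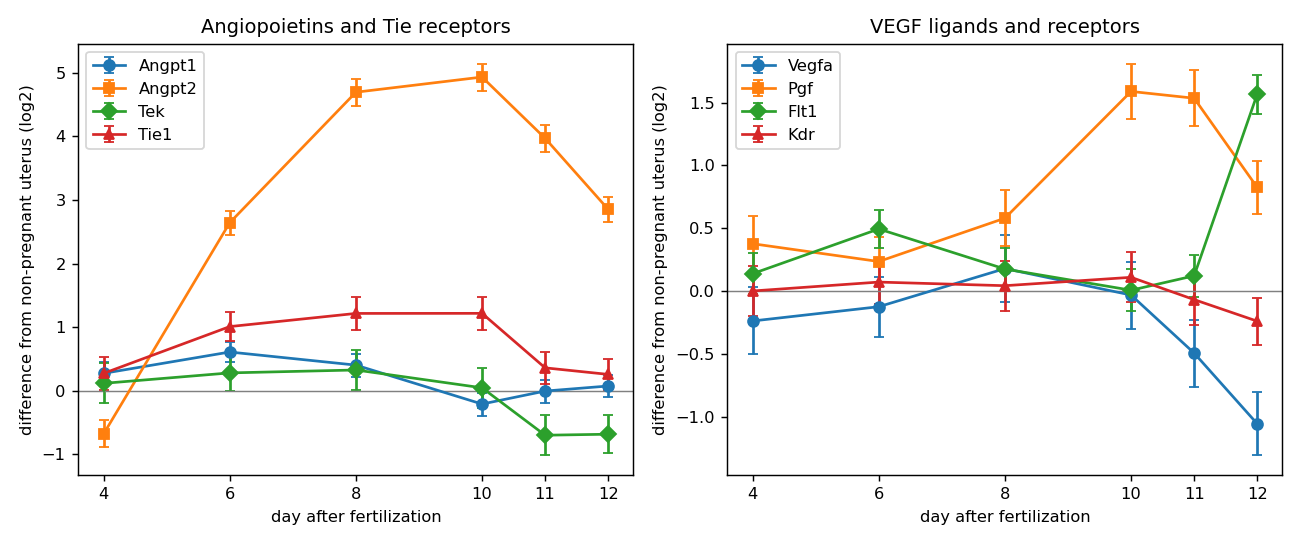
Log2 difference from non-pregnant uterus (vertical axes) by day after fertilization (horizontal axes) for the angiopoietins and Tie receptors (left) and the VEGF ligands and receptors (right). Points are differences of group means and bars standard errors from limma, and non-pregnant arrays did not detect Angpt1 and Pgf, so their differences depend on the background correction. Angpt2 peaks at 4.93 at day 10, Tie1 stays near 1 at days 6 to 10, and Flt1 reaches 1.57 at day 12 while Vegfa falls to -1.06.

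The promoters of the receptors that were measured above background are shown because these genes share endothelial expression, and from day 8 to day 12 Tie1 and Tek fell while Flt1 rose. Sequences are the 250 bases before the transcription start of the promoter entry used (GRCm38.p6). They lie at chr4:94739039-94739288 on the plus strand for Tek and chr4:118489850-118490099 on the minus strand for Tie1. The Flt1 window is chr5:147726012-147726261 on the minus strand. The annotated RefSeq genes begin at chr4:94739086 for Tek and, on the minus strand, at chr5:147726438 for Flt1. Most of the Tek window and all of the Flt1 window thus lie inside those genes, and the Tie1 window lies just outside its gene. Promoters were matched for 6 of the 8 genes. Capitals mark GGAAG, a sequence that contains the GGAA core of ETS factor motifs, and TGACGTCA, the palindromic cAMP response element, on either strand.
Tek: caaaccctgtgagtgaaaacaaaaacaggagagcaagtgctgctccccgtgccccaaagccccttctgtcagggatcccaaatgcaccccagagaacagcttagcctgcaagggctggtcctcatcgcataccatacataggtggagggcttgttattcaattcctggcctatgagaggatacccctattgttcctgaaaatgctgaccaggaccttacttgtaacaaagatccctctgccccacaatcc
Tie1: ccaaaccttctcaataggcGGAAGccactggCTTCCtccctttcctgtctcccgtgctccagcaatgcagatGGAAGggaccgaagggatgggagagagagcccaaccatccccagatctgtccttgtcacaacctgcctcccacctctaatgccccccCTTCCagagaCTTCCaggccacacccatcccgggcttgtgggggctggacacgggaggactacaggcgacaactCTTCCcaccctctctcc
Flt1: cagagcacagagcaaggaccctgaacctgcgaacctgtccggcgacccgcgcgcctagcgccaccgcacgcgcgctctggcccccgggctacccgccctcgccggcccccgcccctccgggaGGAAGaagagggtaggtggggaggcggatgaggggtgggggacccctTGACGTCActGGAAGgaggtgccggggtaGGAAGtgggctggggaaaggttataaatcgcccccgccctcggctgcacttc

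On both strands together, GGAAG occurred 6 times in the Tie1 promoter, 3 times in that of Flt1 and 0 times in that of Tek. At least 1 GGAAG match stood in 64.1% of all 32851 promoters of the same length. The shorter core GGAA was not counted, and the Tek sequence holds it on the minus strand, as ttcc. TGACGTCA occurred 1 time in the Flt1 promoter, 81 bases before the start of the promoter entry used, and in 1.55% of all promoters. The hypoxia response core ACGTG, found in 16.6% of promoters, had no match in these 3 windows. The motifs do not overlap each other, and a match is a description of the letters and not a site.

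Vegfa was detected on all arrays by both probes. With the brighter probe its non-pregnant arrays ran from 8.49 over a median of 9.21 to 9.95. The day 8 arrays read 9.56, 9.58, 9.13 and 9.63, the day 11 arrays 8.68, 8.51, 9.17 and 8.85, and the day 12 arrays 7.71, 8.09, 7.95, 8.43 and 9.02. All day 12 arrays were below all day 8 arrays, and the highest of them, replicate 5, lay within the non-pregnant range. Vegfa fell by 1.06 (SE 0.25, limma adjusted p = 0.000559) at day 12 against non-pregnant uterus and by 1.24 (SE 0.28, adjusted p = 0.000450) from day 8. At day 11 the difference from non-pregnant uterus, -0.49, did not pass, and without the dim non-pregnant replicate 4 it was -0.66 and passed (adjusted p = 0.0296). No neighbours in the order of its group means differed beyond their spread.

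The dimmer Vegfa probe gave -1.06 (SE 0.21, limma adjusted p = 5.85e-05) at day 12 against non-pregnant uterus and -1.68 (adjusted p = 3.69e-07) against day 8. At day 8 both probes differed in the same direction and 1 of them passed. The dimmer one, at 8.86, 8.81, 8.86 and 8.81 against a non-pregnant range of 7.53 to 9.27, rose by 0.61 (SE 0.22, adjusted p = 0.0226). The brighter one differed by 0.18 (SE 0.27, adjusted p = 0.608), and the gap between the probes was not tested.

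Pgf, the VEGFR1 ligand named for the placenta, was not detected on any of the 6 non-pregnant arrays and on 1 array each at days 4, 6 and 8. All 4 day 10 arrays, at 6.03, 5.49, 6.36 and 6.53, and all 4 day 11 arrays, at 6.07, 6.32, 6.08 and 5.71, detected it, as did 3 of 5 day 12 arrays, which read 4.75, 5.81, 5.66, 5.41 and 5.06. All arrays of day 10 and day 11 read above all non-pregnant arrays, the highest of which was 4.69, on the dim replicate 4. The floor of that array, 6.08, lay above some day 10 and day 11 values, so its lack of overlap carries no information. The floors of the other non-pregnant arrays lay below every day 10 and day 11 value. Pgf was at least 1.78-fold higher than in non-pregnant uterus at day 10 (limma adjusted p = 4.74e-07) and at least 1.71-fold at day 11 (adjusted p = 7.02e-07). At day 12 the same measure gave 1.05-fold (adjusted p = 0.00108). With 3 of 5 day 12 arrays detecting Pgf, and the others entered as read, that value is no lower bound. At day 8, with 1 of 4 arrays detecting it, the mean of 5.09 lay below the mean floor of the non-pregnant arrays. No fold could thus be bounded for the fitted day 8 difference of 0.58 (limma adjusted p = 0.0296), which passed. That call was lost under 3 of 14 other settings and when any of 3 of the 10 arrays was left out. From day 8 to day 10 the fitted rise was 1.01 (SE 0.24, adjusted p = 0.00292), again with 1 of 4 day 8 arrays detecting it. The fitted day 10 difference from non-pregnant uterus was 1.59, and 0.47 with the series matrix and 0.52 without background correction, so its size depends on the background step. In the order of its group means, day 10 and day 11 did not differ (adjusted p = 0.927), nor did day 11 and day 12 (adjusted p = 0.0608). The trophoblast list mean had medians of 5.69 at day 8, 9.56 at day 10 and 10.06 at day 11, and its part in the Pgf result was not tested.

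Flt1, the receptor VEGFR1, was highest at day 12. Its non-pregnant arrays ran from 8.98 over a median of 9.38 to 9.75, the day 8 arrays read 9.42, 9.40, 9.56 and 9.70, and the day 11 arrays 9.32, 9.59, 9.39 and 9.57. The day 12 arrays read 10.83, 10.59, 10.87, 11.06 and 11.22, above every array of the other groups. Flt1 rose by 1.57 (SE 0.16, limma adjusted p = 3.98e-10) at day 12 against non-pregnant uterus, which is 2.96-fold, and by 1.45 (SE 0.17, adjusted p = 2.82e-07) from day 11, where 6.62% of all genes were called. Day 12 also differed from day 6, the next in order (adjusted p = 8.93e-07), and no later neighbours in that order differed. At day 6 Flt1 rose by 0.49 (SE 0.15, adjusted p = 0.00859), with the dim day 6 replicate 4 as the highest array. That call was lost in 2 of 14 other settings and was 0.35 at its lowest with an array left out, still past the threshold. The trophoblast list mean had a median of 9.56 at day 10, 10.06 at day 11 and 9.98 at day 12, and its part in the Flt1 result was not tested. Whether the probe reads the soluble form, the membrane form or both was not examined.

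Kdr, the gene of VEGFR2, was detected on 12 of 33 arrays, at most 4 of a group, and no array read above 5.64. Its group means lay between 4.90 and 5.25. It did not pass the F test (limma adjusted p = 0.687) and 0 of 21 pairs of groups differed by limma, also 0 at an unadjusted p under 0.05.

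Among 13 measured genes of 17 listed as other VEGF and angiopoietin genes, 3 rose and 6 fell at day 8 against non-pregnant uterus, with a median difference of -0.53 beside -0.02 for all genes, of which 24.7% rose and 26.2% fell. Angpt4 led the rises, followed by Sema3e, a ligand of plexin D1, which was at least 1.68-fold higher with no non-pregnant array detecting it. The falls included Sema3a, a neuropilin ligand that counters VEGF, at -1.38 (3 of 4 day 8 arrays detected), and Sema3f, another, at -1.02. At day 12, 3 rose and 6 fell, compared with 31.8% and 29% of all genes. Angptl4, a lipase inhibitor of the angiopoietin-like family, fell by 1.61 (SE 0.21) and Vegfd, a VEGFR3 ligand, by 1.18 (SE 0.19), while Sema3f rose by 1.00 (SE 0.31). Sema3f was thus lower at day 8 and higher at day 12, and rose by 2.03 (adjusted p = 1.06e-05) between them.

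**Figure D4:**
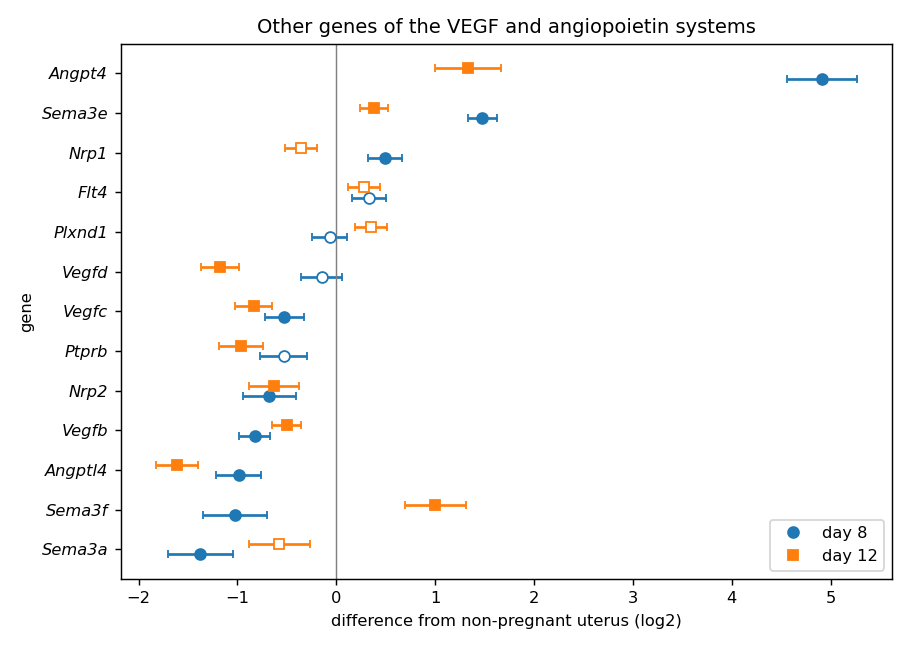
Log2 difference from non-pregnant uterus (horizontal axis) at day 8 (circles) and day 12 (squares) for 13 other genes of the VEGF and angiopoietin systems (vertical axis). Bars are standard errors from limma, and filled symbols mark an adjusted p under 0.05. Angpt4 stands at 4.91 at day 8 and 1.33 at day 12, and Sema3f lies below 0 at day 8 and above 0 at day 12.

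Of 14 measured genes downstream of VEGF and Tie signalling, 6 rose and 2 fell at day 6, 5 rose and 2 fell at day 8, and 5 rose and 4 fell at day 12, with medians of 0.09, 0.09 and 0.07. Of all genes, 19.9% rose and 18.9% fell at day 6, 24.7% and 26.2% at day 8, and 31.8% and 29% at day 12, so the day 12 counts are about those of all genes. At day 8 Notch4, an endothelial Notch receptor, rose by 2.50 (SE 0.20) and Esm1, a tip cell proteoglycan induced by VEGF, by 1.74 (SE 0.25). Insr, the insulin receptor and a FOXO1 target, fell by 0.80 and Foxo1, the transcription factor held back by Tie2 signalling, by 0.52. From day 8 to day 12, 3 of the 14 rose and 8 fell, beside 24% and 23.3% of all genes. Notch4 was at -1.92 and Aplnr, the apelin receptor, at -1.53. Rcan1, a calcineurin inhibitor induced by VEGF, rose by 1.08 (SE 0.13) over the same span and by 1.02 from non-pregnant uterus to day 12.

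Among 13 measured modulators of angiogenesis, 2 rose and 6 fell at day 8 (24.7% and 26.2% of all genes) and 1 rose and 8 fell at day 12 (31.8% and 29%). Ednrb, the endothelin B receptor, was higher by 2.41 (SE 0.33) at day 8, and Adamts1, a protease that can sequester VEGF, by 1.96 (SE 0.33). Edn1, the ligand endothelin 1, fell by 2.70 (SE 0.20), and Thbs2, an antiangiogenic thrombospondin, by 2.52 (SE 0.33). At day 12 Edn1 was at -2.47 and Timp3, a protease inhibitor that also blocks VEGF binding to VEGFR2, at -2.39 (SE 0.17).

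Of the 18 endothelial identity genes measured of 20 listed, 11 rose and 3 fell at day 6 (median 0.61, against 19.9% and 18.9% of all genes). At day 8, 9 rose and 3 fell (median 0.67, against 24.7% and 26.2% of all genes). At day 12, 4 rose and 10 fell (median -0.50, against 31.8% and 29% of all genes). Gpihbp1, the capillary lipase anchor, rose by 3.41 (SE 0.32) at day 8 (1 of 6 non-pregnant arrays did not detect it), and Cdh5, vascular endothelial cadherin, by 1.95 (SE 0.28). Sox7 and Sox17, endothelial transcription factors, fell by 2.11 and 1.56 at the same day, and uterine epithelium is another source of Sox17. From day 8 to day 12, 2 genes rose and 12 fell (median -0.84, against 24% and 23.3% of all genes), with Gpihbp1 at -2.55 and Emcn, a venous and capillary sialomucin, at -2.05. Cdh5 rose further, by 1.12, and Tal1, which blood cells also express, by 2.10. Tie1 and Tek fell over the same span as those 12 genes, while Flt1 rose.

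**Figure D5:**
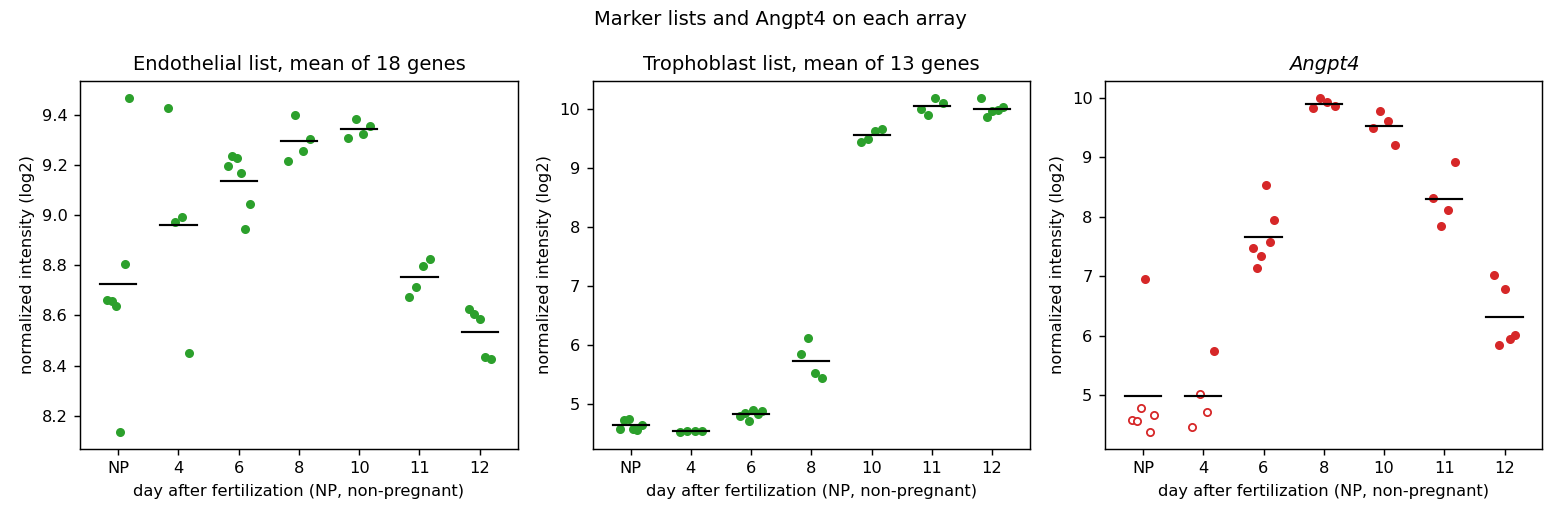
Mean log2 intensity (vertical axes) of 18 endothelial genes (left) and 13 trophoblast genes (middle), and Angpt4 (right, open points undetected), on each of the 33 arrays by group (horizontal axes, non-pregnant uterus and days after fertilization), with bars at group means. The endothelial mean is highest at days 8 and 10 and scattered in non-pregnant uterus and at day 4, the trophoblast mean climbs between days 8 and 10, and Angpt4 is highest at day 8.

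The other marker lists were counted at day 8, where 24.7% of all genes rose and 26.2% fell, and at day 12, where 31.8% rose and 29% fell, against non-pregnant uterus. Of 14 pericyte and smooth muscle genes, 1 rose and 7 fell at day 8, and 1 rose and 9 fell at day 12, with Myh11, smooth muscle myosin, at -3.26 there. Of 15 hypoxia genes, 4 rose and 4 fell at day 8. Among them were Epas1, the hypoxia factor HIF-2 alpha, at 3.53 (SE 0.23) and Slc2a1, the glucose transporter GLUT1, at 2.17. Egln3, an oxygen-sensing hydroxylase, was at -2.91 (SE 0.88). At day 12, 5 of the 15 hypoxia genes rose and 4 fell. Of 8 natural killer genes, 3 rose at day 8, and 5 rose and 1 fell at day 12, with the granzyme Gzmd at 7.11 at day 8. Of 12 decidual stroma genes, 10 rose at day 8 and 4 at day 12. Of 13 trophoblast genes, 6 rose at day 8 and all 13 at day 12, and all 5 embryonic red cell genes rose at day 12. Macrophage genes fell in 8 of 11 cases at day 8 and 10 of 11 at day 12. Of 9 epithelial genes, 8 fell at day 8, and 2 rose and 4 fell at day 12. Of 5 lymphatic endothelial genes 3 rose at each day and 2 fell at day 12.

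The genes whose values followed each member most closely over the 33 arrays were taken by Pearson's r among about 5265 genes with a range of group means of at least 1 log2, as a description that shares arrays and depth. For Angpt2 they were Gata3 (r = 0.97), a transcription factor, Cyp11a1 (0.97), the first enzyme of steroid synthesis, and Nipal1 (0.97). Cyp11a1 was undetected in non-pregnant uterus and at day 4 and had means of 8.01, 9.11, 9.68, 8.58 and 7.51 from day 6 to day 12. For Tie1 they were Acsf2 (0.88), Rasip1 (0.86), an endothelial regulator of vessel lumens, and Nos3 (0.85), endothelial nitric oxide synthase. For Flt1 they were Ceacam12 (0.89) and the placental cathepsins Ctsm (0.88) and Cts6 (0.88), whose family shares sequence. Outside day 12 no array detected Ceacam12 or Ctsm and 1 array detected Cts6, so these r values set day 12 against background. For Tek they were Gprc5b (0.91), Samd3 (0.90) and Tshz3 (0.88), and for Pgf Mical2 (0.88), Myo18b (0.87) and Tmsb15a (0.87). The highest r of Vegfa was 0.82 (Cflar), that of Angpt1 0.75 (Sertad4) and that of Kdr 0.69, with Vegfa itself. Angpt1 and Kdr were detected on 10 and 12 of 33 arrays, so their r values mostly rank background.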

How the data were processed

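Per the labels, extraction was by Trizol and RNeasy with DNase I, and cRNA was labelled with biotin by MessageAmp. The authors' deposited table holds a probe intensity that is not normalised and, beside each intensity, a detection p-value, for 45281 probes on 33 arrays. The deposited series matrix holds log2 values of 16712 probes, read as quantile normalised from their shared distribution, and each of its columns has a median of 7.90. Scanner software and genome build are not given in the sources used here. Replicate numbers differed between the tables for 16 arrays, always within a group, and those of the intensity table are used.

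Intensities were background corrected with limma's nec from the detection p-values (offset 16), quantile normalised and put on log2. Of the 21107 probes detected on at least 4 arrays, 15195 had 1 symbol in the platform annotation, and the brightest stood for each of 10412 genes. The linear model had a mean for each group over all 33 arrays (limma 3.58.1, R 4.3.3, residual degrees of freedom 26), with Benjamini-Hochberg adjustment over all genes of a comparison. The second probes of Angpt2 and Vegfa were adjusted over all probes that passed. For a gene undetected on every array of a group, a fold is set against each array's lowest detected signal. It is a bound where every array of the other group detected the gene. The fit was tested on simulated data. Promoters come from RefSeq (GRCm38.p6). No column of another series was used.

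The 8 members and the 13 gene lists, drawn from textbook knowledge, were chosen with earlier results of these data known, as were the rules for naming genes: all members, up to 2 of the largest rises and falls that passed in each list and described comparison, and the 3 genes most like each member. Alternatives were the series matrix, cyclic loess, median scaling, no background correction, other filters and probe rules, only the groups compared, array weights, a robust prior, a replicate block, a 2-fold minimum, and arrays left out or averaged. Figures were drawn with matplotlib 3.10.9. The closest arrays, day 4 replicates 2 and 3, differed by a median of 0.0934 log2 over bright probes, next to 0.0994 for non-pregnant replicates 2 and 3 and 0.109 for the next pair, and were kept as separate samples.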

Additional observations from a re-analysis of the deposited data

Results flagged for a closer look

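In each of the 70 groups of a member probe, the highest or lowest array was set against the rest of its group, and 4 arrays stood apart by Dixon's criterion, where chance alone flags about 1 in 20 groups. Tek on non-pregnant replicate 4, a dim array, was 6.96, while the 5 others of its group read 8.73 to 9.30. Tek on day 10 replicate 1 was 8.90, against 8.51 to 8.54 on the other 3 day 10 arrays. The brighter Vegfa probe read 9.13 on day 8 replicate 3, against 9.56 to 9.63 on the other 3 day 8 arrays. Flt1 on day 6 replicate 4, the other dim array, was 10.56, against 9.58 to 9.84 on the other 5 day 6 arrays.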

How the results depend on the processing

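Among 1344 values of members recomputed under other processing settings, 1247 kept their direction and their side of the threshold, 25 lost their call, 22 gained one, 50 that passed in neither turned their sign, and 0 called values reversed. With 1 array left out at a time, 837 of 936 were unchanged in this sense, 35 lost and 8 gained a call, 56 uncalled values turned, and 0 reversed. The count of members called at day 4 against non-pregnant uterus, 1, became 0 under median scaling, without background correction, with the series matrix, with only the groups compared, with near-identical arrays averaged and with a 2-fold minimum, and 3 with array weights. With arrays left out it was 0 to 1. The replicate block also gave 0. No label says that replicate numbers pair the samples. The correlation of same-numbered arrays had a median of 0.012 over 88 pairs, from -0.35 to 0.43, with 19 pairs over 0.1. A median cannot exclude that some arrays are paired. At day 6 the count of 4 was 2 with a 2-fold minimum, and at day 12 the count of 5 was 3 with a 2-fold minimum. At day 8 the count of 3 was 5 with array weights and 4 with cyclic loess and without both dim arrays. It was 2 there with the series matrix, under median scaling and with a 2-fold minimum. At day 11 the count of 2 was 5 with array weights, 4 without both dim arrays, 3 with cyclic loess, with the series matrix and without background correction, and 2 to 4 with arrays left out, where the 4 came without non-pregnant replicate 4. From day 4 to day 6 the count of 2 was 1 under median scaling, with only the groups compared, without both dim arrays, with near-identical arrays averaged, with a 2-fold minimum, and 1 to 2 with arrays left out. From day 8 to day 10 the count of 2 was 1 under median scaling, without background correction, with the series matrix, with a 2-fold minimum, and 1 to 2 with arrays left out. From day 10 to day 11 the count of 2 was 0 under median scaling and with a 2-fold minimum, and 1 to 2 with arrays left out. For these changes the cause was not tested, except that a 2-fold minimum removes smaller differences by construction. The share of all genes called was not counted under these settings, so a change in a count is no result about the members. Median scaling moved the median of all genes by 0.14 at day 4 against non-pregnant uterus and by -0.17 from day 4 to day 6. Blocking on slides was not run, since slides are unknown here. Signal over background limits Angpt1, Kdr and Pgf.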
